A study of Rattus norvegicus with 20 samples.

Results

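In unstimulated rat neural stem cells moved to differentiation medium, 274 genes met a set limit of rise between 0 d and 5 d. For 65 of these, the mean level with the Wnt pathway held on by CHIR99021 lay close to the unstimulated 5 d mean. The unstimulated mean joins wild-type and light-responsive (optoWnt) cells, and the CHIR99021 mean is of optoWnt cells only. These 65 genes are described here, out of 32623 Ensembl gene IDs in the deposited count table. They were chosen on a log2 level, the base-2 logarithm of 1 plus the RPM, which is the reads per 1000000 reads of the library. A member had a log2 level of at least 3 in both unstimulated 5 d libraries, stood at least 1.5 higher in each of them than in each unstimulated 0 d library, and had a mean over CHIR99021 3 d ON and 5 d ON within 0.5 of the unstimulated 5 d mean. Of the other induced genes, 160 had a CHIR99021 mean more than 0.5 lower and 49 one more than 0.5 higher. Values in those 6 libraries chose the members, so they are given as a description. The tests below use the other 14 libraries.

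The cells were hippocampal neural stem cells of Fisher 344 rats, profiled by sequencing the 3' ends of messenger RNA in 20 libraries. They were wild-type, or carried optoWnt, a construct that makes the Wnt pathway answer to light, and were then selected with puromycin after transduction. The promoter of the construct was not stated in the labels. Growth medium held FGF-2, and treatment was in basal medium with N-2 supplement and 0.5% FBS. Unstimulated libraries came from wild-type and optoWnt cells at 0, 3 and 5 d, 1 of each. All stimulated libraries came from optoWnt cells. The inducer was CHIR99021 (labelled 3 mM), Wnt3a (100 ng/mL) or light. It was applied for 1 d or 3 d (1 d ON, 3 d ON), or for 1 d and then withdrawn for 1 d or 2 d (1 d OFF, 2 d OFF). CHIR99021 and Wnt3a were also sequenced at 5 d ON. Each combination of inducer and schedule is 1 library. The labels do not say whether libraries came from separate cultures. No 2 of the libraries tested below share genotype, inducer and schedule. The spread behind the p-values therefore holds the genotype difference at unstimulated 3 d and inducer differences that vary by schedule. Any technical spread is part of it too, so it is not a spread between replicates. The titles of the unstimulated 3 d and 5 d libraries contain ON as well, and the sources used here do not state their illumination. In bulk libraries like these, fewer cells of a type and less RNA per cell cannot be told apart.

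As background, adult neural stem cells divide while FGF-2 is present and differentiate into neurons and glia when it is withdrawn. Wnt ligands and light on optoWnt act at the receptor complex, whereas CHIR99021 blocks the kinase GSK-3 further down, and each route lets β-catenin accumulate and act with TCF/LEF factors on transcription. The files used here pair no ID with a symbol (0 matched), so members are given by ID, and no role, pathway, cell type marker or promoter sequence is assigned to them. The labelled cell type was therefore not checked against its markers.

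Library totals ran from 696463 reads (Wnt3a 1 d ON) to 5935681 reads (unstimulated optoWnt 3 d). In the shallowest library the members had a median of 15 reads, and 21 of the 65 had fewer than 10. On the first principal component of all 20 libraries (29.4% of the variance) 6 libraries stood apart, at -41.5 or lower against 8.9 or higher in the rest. They were unstimulated wild-type 0 d and 5 d, both of which the rule uses, and light at 3 d ON, Wnt3a at 5 d ON and the 2 d OFF libraries of CHIR99021 and Wnt3a. In the tests below, the members' medians and the fold changes of single members are also given without these libraries, where a compared group holds any of them. With the wild-type libraries left out of the rule, 126 genes met it, 51 of them among the 65. Membership therefore depends on the wild-type pair. The members lost failed only the limit on the CHIR99021 mean, then set against the optoWnt 5 d library alone. Most of them stood higher under CHIR99021 at 3 and 5 d ON, as ENSRNOG00000008015 did (log2 levels 6.28 and 5.42 against 4.84). The rest stood lower, as ENSRNOG00000015118 did (3.75 and 3.21 against 4.0). For the members lost, the likeness to CHIR99021 did not hold within optoWnt cells.

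The members covered a wide range of abundance. Their mean in the unstimulated 5 d libraries ran from 7.65 to 1130 RPM, with a median of 49.5, against a median of 6.49 at 0 d. The rise of the means had a median of 2.47 on the log2 scale and ran from 1.7 to 4.18, and in 14 members it was at least 3. All but 1 member had reads in both 0 d libraries. At 5 d, 46 of the 65 were higher in the wild-type than in the optoWnt library, by a median of 0.33 over all 65 on the log2 scale. Members and other genes lay close together at the limits of gap and distance, and less so at the limit of level. The smallest gaps between 5 d and 0 d were 1.509 and 1.513 inside and 1.494 and 1.464 outside. The lowest 5 d log2 levels were 3.048 and 3.089 inside and 2.566 and 2.548 outside, and the largest distances of the CHIR99021 mean were 0.49 and 0.49 inside and 0.515 and 0.524 outside.

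The most abundant member was ENSRNOG00000000991. It stood at 145 and 276 RPM at 0 d, 977 and 510 at 3 d and 1370 and 890 at 5 d in unstimulated wild-type and optoWnt cells, and at 1100 and 1040 under CHIR99021 at 3 and 5 d ON. In the libraries the rule did not use it ranged from 438 (light 1 d ON) to 1050 RPM (Wnt3a 1 d ON 1 d OFF), so every one of them lay above both 0 d libraries. ENSRNOG00000026490 was named for the widest gap between its lower 5 d and its higher 0 d log2 level (3.16, a value that ENSRNOG00000006033 shares to 2 decimals). By the rise of the means, at most 4.18, other members were ahead of it. Its values were 5.84 and 7.67 RPM at 0 d, 98 and 63.3 at 3 d and 76.6 and 96.3 at 5 d in unstimulated wild-type and optoWnt cells, and 109 and 84.3 under CHIR99021 at 3 and 5 d ON. After the first day it was already at 39.8 RPM with CHIR99021, 60.3 with Wnt3a and 47.4 with light.

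The likeness to CHIR99021 was one of means, since the rule averages both CHIR99021 libraries. Across the members, the CHIR99021 mean minus the unstimulated 5 d mean ran from -0.49 to 0.49 by construction, with 36 members above 0. In 37 of the 65, each CHIR99021 library on its own lay within 0.5 of the unstimulated 5 d mean. In the other 28 at least 1 of them lay further away. CHIR99021 5 d ON was above 3 d ON in 21 members, and the difference between these libraries ran from -2.2 to 1.58 on the log2 scale with a median of -0.28. ENSRNOG00000057078 shows such a case, with 264 RPM at 3 d and 56.9 at 5 d of CHIR99021 against 199 and 86.2 in unstimulated wild-type and optoWnt cells at 5 d.

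**Figure D1:**
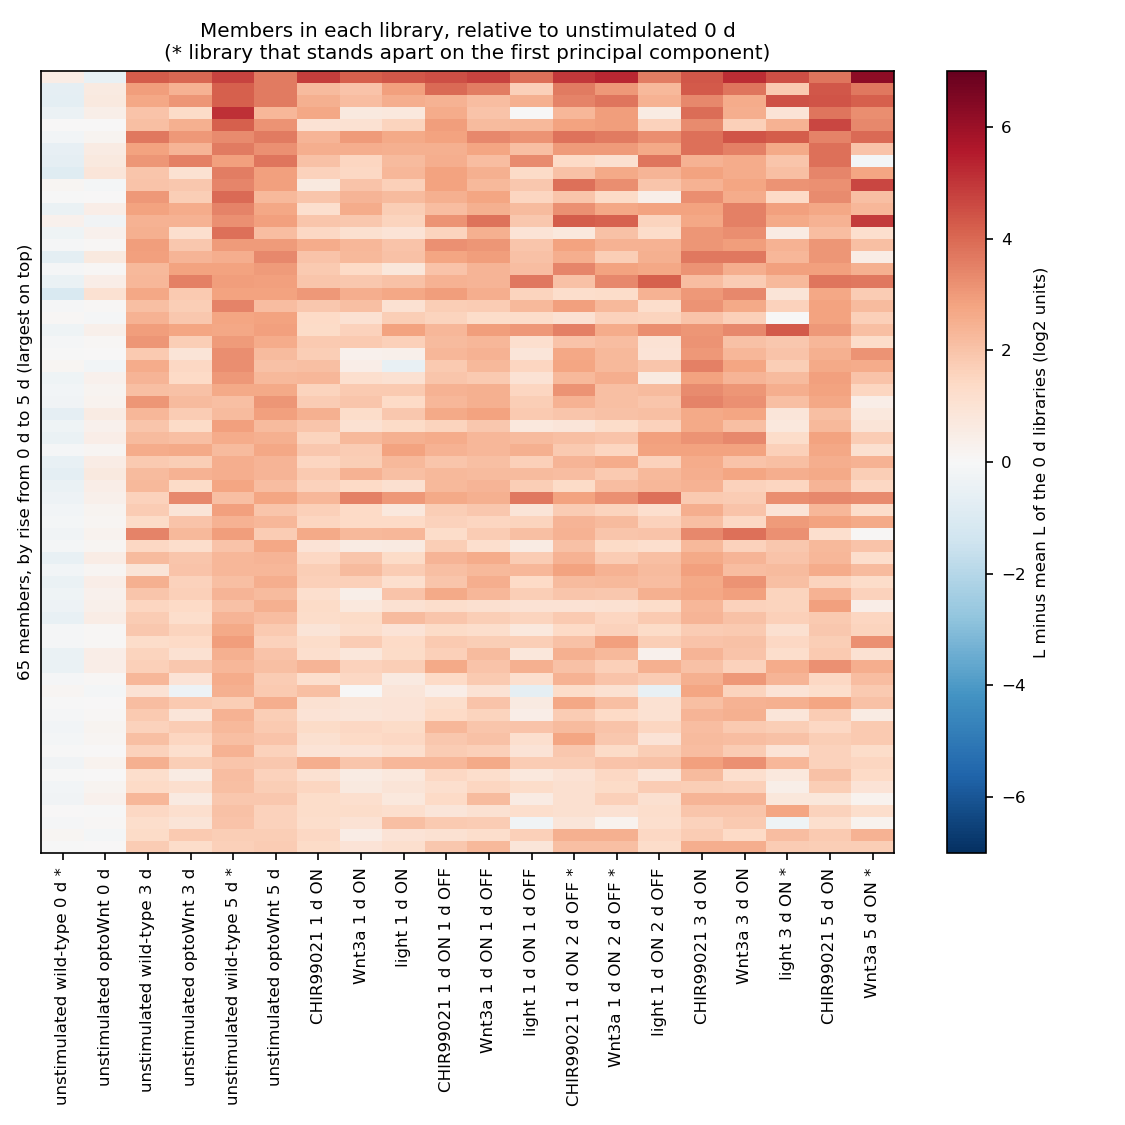
Heat map of the 65 members (rows, sorted by rise) in the 20 libraries (columns). Colour is the log2 level minus the mean of both unstimulated 0 d libraries, and asterisks mark the 6 libraries that stand apart. In 54 of the 65 members (5.81% of all genes) every one of the 14 libraries not used by the rule lies above both 0 d libraries, whose low values the rule required.

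To describe timing, each member was placed between its own mean log2 level at unstimulated 0 d (position 0) and at unstimulated 5 d (position 1). These anchors are libraries of the rule, so positions carry no test. Since the rule chose genes that are low at 0 d, it also favours positions above 0 in any other library. After 1 d ON the members' median position was 0.64 under CHIR99021 (quartiles 0.56 and 0.76), 0.59 under Wnt3a (0.43 and 0.75) and 0.61 under light (0.46 and 0.74). Averaged over the 3 inducers, 48 members had reached position 0.5 and 13 had reached 0.75. In all 3 libraries of 1 d ON, 63 of the 65 lay above both 0 d libraries, where 21.2% of all genes tested below did. The rule required low values at 0 d, so nothing is read from this count. Cells at 1 d without a stimulus were not analysed here, so what the first day of medium and the stimulus each contribute cannot be told apart.

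At day 3 without a stimulus the median position was 0.82 in wild-type and 0.68 in optoWnt cells. Both libraries had reached 0.5 for 53 members and 0.75 for 22, and the wild-type value was the higher for 50 (54.9% of all genes). The SD of the library medians was 0.1 for this pair. For comparison, it was 0.03 at 1 d ON, 0.12 at 1 d OFF, 0.07 at 2 d OFF and 0.1 for Wnt3a and light at 3 d ON. With 1 library per genotype and day, genotype and library cannot be told apart.

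Under sustained Wnt3a the median was 0.92 at 3 d ON and 0.73 at 5 d ON, and under light it was 0.78 at 3 d ON. Position 0.5 was reached by 64, 51 and 48 members in these 3 libraries. Wnt3a 5 d ON and light 3 d ON are libraries that stand apart, and Wnt3a 3 d ON does not. Median positions after 1 d ON and 1 d OFF were 0.8 under CHIR99021, 0.84 under Wnt3a and 0.62 under light. After 1 d ON and 2 d OFF they were 0.89, 0.82 and 0.75 in that order. The first pair of these last 3 libraries stands apart, and light, which does not, had the lowest value.

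The 108 induced genes whose CHIR99021 mean was at least 1.5 lower give a comparison on the same scale. They were also chosen on these anchors and on CHIR99021 3 and 5 d ON. Under CHIR99021 at 1 d ON, a library outside both choices, their median position was 0.3 against 0.64 for the members. After 1 d OFF it was 0.56 against 0.8, and after 2 d OFF 0.76 against 0.89. Under Wnt3a and light at 1 d ON the 108 genes stood at 0.64 and 0.69, against 0.59 and 0.61 for the members. In unstimulated 3 d libraries they stood at 0.89 and 0.91, above the members' 0.82 and 0.68. No test was made of these differences between gene sets.

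**Figure D2:**
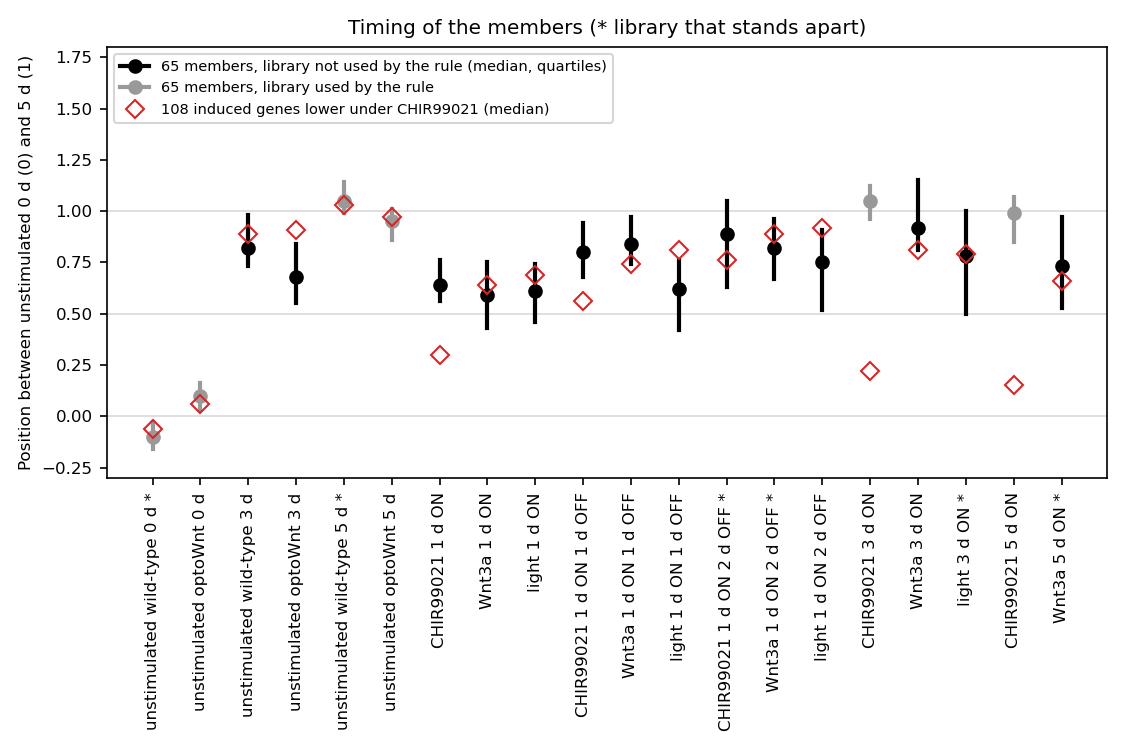
Median position (circles) and quartiles (bars) of the 65 members in each library, where 0 is unstimulated 0 d and 1 is unstimulated 5 d. Diamonds are the medians of the 108 induced genes lower under CHIR99021. The members' median is above that of the 108 genes at CHIR99021 1 d ON (0.64 against 0.3) and below it in unstimulated optoWnt cells at 3 d (0.68 against 0.91). At CHIR99021 3 and 5 d ON the sets differ by choice.

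Members differed among themselves in how far they were after the first day. In all 3 libraries of 1 d ON, 34 had reached position 0.5, 6 had reached 0.75 and 4 were still under 0.5. These 6 early members stood at medians of 0.99 and 0.96 in unstimulated wild-type and optoWnt cells at 3 d. The 4 late members stood at 0.72 and 0.46 there. Across the 14 libraries, 54 members lay above both 0 d libraries in every one (5.81% of all genes), a count that the rule's low 0 d values favour. In 21 members the position was 0.5 or more in every one. The groups of 6 and 4 were picked by these values.

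Members lay far apart in Wnt3a 5 d ON, with positions from -0.04 to 1.61. The light libraries of 1 d OFF (-0.29 to 1.51), 2 d OFF (-0.24 to 1.6) and 3 d ON (-0.17 to 1.55) each spanned more. At Wnt3a 5 d ON 14 members were under 0.5 and 13 at 1 or more. All 14 low members had been at 0.5 or more at Wnt3a 3 d ON, with a median of 1.08, and 6 of the 14 were also under 0.5 at light 3 d ON. Of the 13 high members, 9 were at 1 or more after Wnt3a 1 d ON 2 d OFF, against 1 of the 14 low ones. Wnt3a 5 d ON, Wnt3a 1 d ON 2 d OFF and light 3 d ON all stand apart. At Wnt3a 3 d ON, which does not, the high members had a median of 0.86, below the 1.08 of the low ones. Both sets were picked by their values at Wnt3a 5 d ON, and no share of other genes is given. Wnt3a 5 d ON has the lowest first component score of all libraries (-109.8), and its part in this spread was not tested.

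The 8 comparisons below share libraries (1 d ON, 2 d OFF and unstimulated 3 d each enter several), so their results are not independent of each other. The first asked whether members went on rising after the first day, when the stimulus was withdrawn. Day and stimulus change together in it and in the comparison of 1 d OFF, so their parts cannot be told apart. edgeR's quasi-likelihood test on the 14 libraries, with a term for inducer, kept 12710 genes, all 65 members among them. From 1 d ON to 1 d ON 2 d OFF (3 libraries each, within inducer) 0 members passed an adjusted p of 0.05, where 0.0472% of all genes did. At an unadjusted p under 0.05, 18 members were higher and 0 lower, against 7.89% of all genes higher and 6.27% lower. DESeq2 called 3 of the 63 members it tested, all higher, where it called 2.44% of all genes higher and 1.51% lower. The median log2 fold change of the members was 0.5 with 55 of 65 above 0, and that of all genes 0.04 with 52% above 0. In 16 members every library of 2 d OFF exceeded every library of 1 d ON, against 7.66% of all genes, and in 1 member the order was opposite, against 8.7%.

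ENSRNOG00000014034 had the smallest p of the members above 0. It stood at 37.9 RPM with CHIR99021, 35.9 with Wnt3a and 28.9 with light at 1 d ON, and at 189, 174 and 29 after 2 d OFF. The light values were almost equal, and the high values after 2 d OFF are those of libraries that stand apart. After 1 d OFF, in libraries that do not, the gene stood at 88.2, 138 and 36 RPM in the same order. From 1 d ON to 2 d OFF its log2 fold change was 1.63 (SE 0.41, edgeR adjusted p = 0.158, DESeq2 adjusted p = 0.0089). Without the libraries that stand apart it was 0.48 (edgeR adjusted p = 0.728), and over all alternatives it ran from 0.48 to 2.1. ENSRNOG00000002937, a low member, stood at 4.29, 2.87 and 1.63 RPM at 1 d ON and at 15.2, 9.47 and 8.72 after 2 d OFF, with no overlap. The Wnt3a value at 1 d ON is below the 4.31 RPM that a count of 0 allows in that library. The light value at 1 d ON, from a library of 1836461 reads, is also near such a limit. The gene was also called by DESeq2 (DESeq2 log2 fold change 1.93, DESeq2 adjusted p = 0.0408) and not by edgeR (adjusted p = 0.163). Its edgeR log2 fold change was 1.92, and 1.78 without the libraries that stand apart. ENSRNOG00000022337 had the smallest p of those below 0, with 15.8, 21.5 and 19.6 RPM at 1 d ON and 15.9, 10 and 4.79 after 2 d OFF, so the arms overlapped (log2 fold change -0.99, SE 0.47, edgeR adjusted p = 0.361). Its value was -1.55 without the libraries that stand apart.

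The libraries that stand apart bear on this comparison. Without them the 2 d OFF arm is light alone, and its spread is taken from the other groups. The members' median was then 0.57, and that of all genes was -0.01. Without the light library, the 2 d OFF arm consists of those that stand apart. Then 10 members were called higher and 1 lower, along with 876 and 1210 of all genes, and the members' median was 0.42.

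After a single day of withdrawal the median log2 fold change against 1 d ON was 0.41, with 55 members above 0, and that of all genes was 0.03. Here 0 members were called by edgeR (0% of all genes) and 0 by DESeq2 (0.179% of all genes higher and 0.0153% lower). At an unadjusted p under 0.05, 6 members were higher and 0 lower, against 1.57% and 0.897% of all genes. Every 1 d OFF library exceeded every 1 d ON library in 6 members (4.49% of all genes), and in 1 the order was opposite (6.27%). None of these libraries stands apart. The counts differed between inducers. Under Wnt3a 56 of 65 members were higher at 1 d OFF than at 1 d ON (57% of all genes), under CHIR99021 49 (46.7%) and under light 30 (41.2%). Under light, 49 members were higher at 2 d OFF than at 1 d OFF (50% of all genes). No test of this difference between inducers was made. ENSRNOG00000014090 had the smallest p, with 102, 111 and 102 RPM for CHIR99021, Wnt3a and light at 1 d ON and 206, 156 and 162 after 1 d OFF, and no overlap between arms (log2 fold change 0.78, SE 0.26, edgeR adjusted p = 0.999). ENSRNOG00000057078 was the member with the opposite order, at 159, 123 and 126 RPM and then 62, 88.5 and 111 (log2 fold change -0.58, SE 0.36, edgeR adjusted p = 0.999).

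The members at 1 d ON were next set against unstimulated 3 d cells (3 libraries against 2), which differ in both day and stimulus. Their median log2 fold change was -0.45, with 12 of 65 above 0, against -0.03 for all genes. edgeR called 0 members (0.0629% of all genes) and DESeq2 0 (0.164% of all genes higher and 0.254% lower). At an unadjusted p under 0.05 there were 10 lower and 0 higher, against 2.3% and 1.11% of all genes. In 20 members every 1 d ON library lay below both 3 d libraries, against 9.11% of all genes, and 0 lay above, against 10.7%. Without the wild-type library the members' median was -0.15, with 25 of them above 0, and that of all genes was 0.01. ENSRNOG00000046109 had the smallest p, with 96.2, 108 and 71.9 RPM at 1 d ON and 238 and 131 at 3 d in wild-type and optoWnt cells (log2 fold change -1.06, SE 0.32, edgeR adjusted p = 0.676), and no overlap between arms. ENSRNOG00000023257, a member of low level, had the smallest p of those above 0. It stood at 9.17, 1.44 and 3.27 RPM at 1 d ON and at 3.9 and 0.842 at 3 d, with overlap (log2 fold change 0.99, SE 0.86, edgeR adjusted p = 1). Its Wnt3a value is below the 4.31 RPM that a count of 0 allows in that library.

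At day 3, members under sustained Wnt3a or light were compared with unstimulated cells (2 libraries against 2, without the CHIR99021 library that the rule used). The median log2 fold change was 0.24, with 46 members above 0, and 0.01 for all genes. edgeR called 0 members (0% of all genes) and DESeq2 0 (0.109% of all genes higher and 0.0519% lower), and 2 members were higher and 1 lower at an unadjusted p under 0.05, against 1.72% and 0.889% of all genes. In 18 members both stimulated libraries lay above both unstimulated ones, where 17% of all genes did, and in 3 both lay below, where 10.8% did. ENSRNOG00000026490 had the smallest p of those above 0, at 161 (Wnt3a) and 146 (light) against 98 and 63.3 RPM (log2 fold change 0.87, SE 0.35, edgeR adjusted p = 1). ENSRNOG00000046848 had the smallest p of those below 0, at 28.4 and 8.67 against 49.9 and 33.4 RPM (log2 fold change -1.25, SE 0.52, edgeR adjusted p = 1). Its lowest value is that of light 3 d ON, which stands apart. Its log2 fold change was -0.5 and that of ENSRNOG00000026490 was 0.74 without the libraries that stand apart. The members' median was 0.27 without the libraries that stand apart and 0.43 without the wild-type library.

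The question of the study, a transient against a sustained stimulus, was asked of the members at day 3. After 1 d ON 2 d OFF they had a median log2 fold change of 0.19 against unstimulated 3 d cells and of -0.18 against Wnt3a and light 3 d ON, with 44 and 20 members above 0. All genes had medians of 0.01 and -0.03. Both comparisons use the same withdrawn libraries. Against unstimulated cells, 0 members were called by edgeR (0% of all genes) and 0 by DESeq2 (0.0845% of all genes higher and 0.0242% lower). At an unadjusted p under 0.05, 3 were higher and 2 lower, against 2.67% and 3.01% of all genes. The arms did not overlap in 3 members that were higher (8.55% of all genes) and 2 that were lower (8.17%). The median was 0.13 without the libraries that stand apart and 0.34 without the wild-type library. Without the light library of 2 d OFF, 1 member was called higher and 1 lower, with 203 and 552 of the 12471 genes tested. Against sustained stimulation, 0 were called by edgeR (0% of all genes) and 0 by DESeq2 (0.0221% of all genes higher and 0.083% lower). At an unadjusted p under 0.05, 1 was higher and 2 lower, against 2.86% and 3.12% of all genes. The arms did not overlap in 1 member that was higher (5.91% of all genes) and 6 that were lower (8.16%). Without the libraries that stand apart that median was -0.34.

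Single members reached larger values in these comparisons. ENSRNOG00000001277 stood at 19.7, 35 and 15.7 RPM after 2 d OFF of CHIR99021, Wnt3a and light against 11.2 and 12.1 in unstimulated cells, with no overlap (log2 fold change 0.93, SE 0.4, edgeR adjusted p = 0.826). ENSRNOG00000022337, given above, stood at 35.6 and 13.3 in the unstimulated libraries, so its Wnt3a and light values of 10 and 4.79 lay below both and its CHIR99021 value of 15.9 between them (log2 fold change -1.35, SE 0.49, edgeR adjusted p = 0.826). These values were 0.48 for the first gene and -1.92 for the other without the libraries that stand apart. ENSRNOG00000050834 stood at 69.6, 180 and 318 RPM after 2 d OFF and at 58.6 and 83 at 3 d ON of Wnt3a and light, so the arms overlapped (log2 fold change 1.57, SE 0.49, edgeR adjusted p = 0.824). ENSRNOG00000057078 stood at 140, 98.4 and 101 after 2 d OFF and at 371 and 240 at 3 d ON, with no overlap (log2 fold change -1.41, SE 0.41, edgeR adjusted p = 0.824). ENSRNOG00000050834 had a log2 fold change of 1.75 and ENSRNOG00000057078 one of -1.94 without the libraries that stand apart.

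Since the members were chosen for a like level under sustained CHIR99021, the inducers were compared over 1 d ON, 1 d OFF and 2 d OFF, which the rule did not use. The fold changes come from the model of all 14 libraries. Wnt3a and light at 3 d ON therefore also inform them, through Wnt3a minus light, and light 3 d ON stands apart. RPM values and counts of overlap are from the 9 libraries of the 3 schedules alone. CHIR99021 against Wnt3a gave a median log2 fold change of -0.02 with 31 of 65 members above 0, and -0.02 for all genes. It was 0.04 without the libraries that stand apart. The middle 50% of members lay between -0.11 and 0.23. edgeR called 0 members (0% of all genes) and DESeq2 0 (0.0594% of all genes higher and 0.0216% lower). At an unadjusted p under 0.05, 2 members were higher and 0 lower, against 0.983% and 0.708% of all genes. The inducers did not overlap in 1 member that was higher (2.12% of all genes) and 0 that were lower (1.86%). CHIR99021 was the higher in all 3 schedules for 10 members (10.3% of all genes) and the lower for 2 (10.6%). ENSRNOG00000009639 had the smallest p of those above 0, at 63, 76.1 and 50.6 RPM for 1 d ON, 1 d OFF and 2 d OFF of CHIR99021 against 37.3, 49 and 38.7 of Wnt3a, with no overlap (log2 fold change 0.69, SE 0.29, edgeR adjusted p = 1). ENSRNOG00000010800 had the smallest p of those below 0, at 65.6, 69.6 and 39.6 against 51.7, 133 and 97.8, higher at 1 d ON and lower in both withdrawn libraries (log2 fold change -0.89, SE 0.47, edgeR adjusted p = 1). Without the libraries that stand apart its value was -0.35, and that of ENSRNOG00000009639 was 0.76.

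Against light, CHIR99021 gave a median of 0.35 with 51 members above 0, and 0 for all genes. edgeR called 0 members (0.0708% of all genes), with 11 higher and 2 lower at an unadjusted p under 0.05, against 5.29% and 4.23% of all genes. DESeq2 called 2 members, both higher, where it called 0.875% of all genes higher and 0.709% lower. The inducers did not overlap in 12 members that were higher (10.4% of all genes) and 2 that were lower (7.74%). Compared schedule by schedule, CHIR99021 was the higher in all 3 schedules for 23 members (19.1% of all genes) and the lower for 4 (14.9%). Without the libraries that stand apart the members' median was 0.36, and that of all genes was 0.01. ENSRNOG00000006094 had the largest difference. It stood at 26.1, 23.7 and 20.1 RPM for 1 d ON, 1 d OFF and 2 d OFF of CHIR99021 and at 5.99, 3.2 and 5.23 of light, with no overlap (log2 fold change 2.32, SE 0.47, edgeR adjusted p = 0.111, DESeq2 adjusted p = 0.00118). This value was 2.51 (edgeR adjusted p = 0.109) without the libraries that stand apart.

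The level of ENSRNOG00000006094 at unstimulated 5 d, 145 RPM in wild-type and 19.9 in optoWnt cells, differed by more than that of any other member. In optoWnt cells alone, CHIR99021 at 3 and 5 d ON (62.3 and 55.3) lay well above 19.9. ENSRNOG00000014453, the other member called by DESeq2, stood at 102, 153 and 204 under CHIR99021 against 39.8, 56 and 59.1 RPM under light (DESeq2 log2 fold change 1.39, DESeq2 adjusted p = 0.0163, edgeR adjusted p = 0.168). ENSRNOG00000050834 was lower under CHIR99021, at 64.4, 91.5 and 69.6 against 69.7, 220 and 318 (log2 fold change -1.15, SE 0.42, edgeR adjusted p = 0.394). Without the libraries that stand apart its value was -0.75, and the edgeR value of ENSRNOG00000014453 went from 1.43 to 1.42. The values of ENSRNOG00000050834 at 1 d ON were close, and the gap was in the withdrawn libraries.

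**Figure D3:**
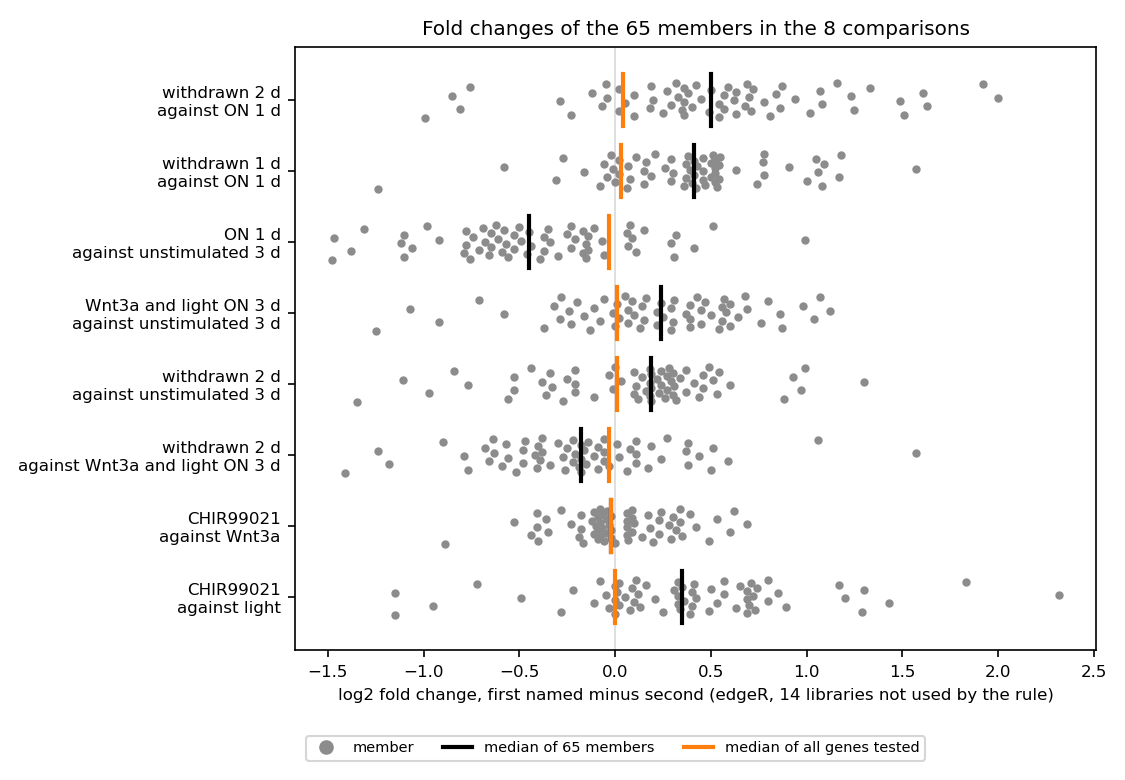
Log2 fold changes of the 65 members (points) in the 8 comparisons from edgeR, with the median of the members (black) and of all 12710 genes tested (orange). The members' medians lie furthest from those of all genes for 2 d OFF against 1 d ON (0.5) and for 1 d ON against unstimulated 3 d (-0.45).

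**Figure D4:**
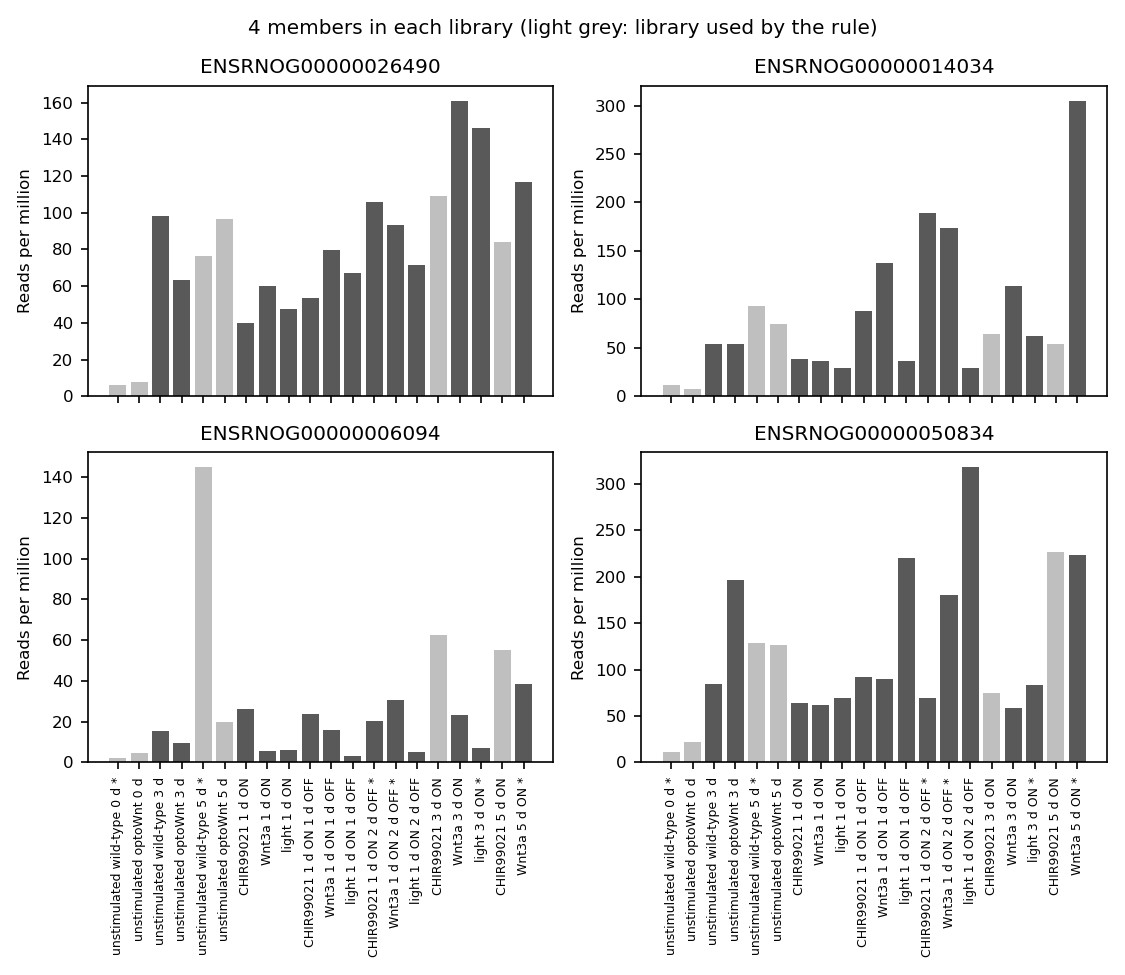
RPM of 4 members in each library (bars, 1 library each, so no error is drawn). Light grey marks the 6 libraries used to choose the members and asterisks those that stand apart. ENSRNOG00000014034 reaches 305 at Wnt3a 5 d ON, and ENSRNOG00000006094 is at 145 in 1 unstimulated 5 d library and 19.9 in the other.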

How the data were processed

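The authors deposited whole-number counts of reads per Ensembl gene ID and well, without normalization. Per the submitters' processing notes, Bowtie2, Subread and featureCounts and the build Rnor_6.0 were used; the sources used here give neither versions nor the strand setting, so reads of overlapping genes or near-identical copies may be counted for the wrong gene. Wells were tied to libraries through the labels. The members, gene lists and tests were chosen with earlier results of these data known.

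Tests used edgeR 4.0.16 (R 4.3.3, limma 3.58.1): TMM, filterByExpr, a model of 14 libraries with 8 coefficients (schedule, and inducer coded to sum to 0), 6 residual degrees of freedom and Benjamini-Hochberg adjustment over 12710 genes. The common biological coefficient of variation was 0.379. The fit was tested on simulated data. Standard errors were derived from the log2 fold change and its F statistic. Alternatives were DESeq2 1.42.0, other scaling, no low-count filter, all 20 libraries with genotype, no inducer term, and single libraries left out. A count of 0 allows up to 4.31 RPM (reads per 1000000 library reads) in the shallowest library and 0.505 in the deepest, for counting error only. By rule, the IDs named are the most abundant member, the one with the widest gap, and in each comparison the member with the smallest p on each side; other IDs were chosen after their values were seen. The lists that need symbols were not run.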

Additional observations from a re-analysis of the deposited data

How the results depend on the processing

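The number of members was 141 with a rise of 1 and 25 with a rise of 2, 37 with a CHIR99021 distance of 0.25 or with each CHIR99021 library held within 0.5, and 126 without the wild-type libraries. Other settings gave 54 to 86 members: TMM-scaled totals 67, of which 62 were shared, CHIR99021 5 d ON alone 57 (48 shared) and CHIR99021 3 d ON alone 62 (49 shared). For 2 d OFF against 1 d ON, edgeR's 0 called members became 3 with DESeq2 (369 of 9337 genes tested) and 5 with no low-count filter (475 of all genes). They became 0 to 11 with single libraries left out (2086 of 12471 genes tested at the 11, without light 1 d ON 2 d OFF). For 2 d OFF against unstimulated 3 d they became 0 to 2 with single libraries left out, the 2 again without light 1 d ON 2 d OFF (755 of 12471 genes tested). For CHIR99021 against light they became 2 with DESeq2 (190 of 11996 genes tested), 3 with no low-count filter (262 of all genes) and 1 with all 20 libraries (170). The fit of all 20 libraries includes those whose values chose the members, so its results for members are a description and no check. It is also among the alternatives and refits counted below. The other 5 comparisons gave 0 called members under all their alternatives. The members' median log2 fold change kept its sign in all alternatives for 2 d OFF and 1 d OFF against 1 d ON (0.34 to 0.58 and 0.3 to 0.48), 1 d ON and sustained Wnt3a and light against unstimulated 3 d (-0.54 to -0.15 and 0.11 to 0.43), 2 d OFF against sustained stimulation (-0.34 to -0.04) and CHIR99021 against light (0.27 to 0.51). It changed sign for 2 d OFF against unstimulated 3 d (-0.05 to 0.34) and CHIR99021 against Wnt3a (-0.08 to 0.27). Of 332 refits of the named fold changes, 0 changed sign and 6 became called, 3 each for ENSRNOG00000014034 and ENSRNOG00000006094. Their sizes moved by over 1.5 times in these cases: 0.48 to 2.1 for ENSRNOG00000014034, 0.24 to 2.34 for ENSRNOG00000023257, -2.39 to -0.5 for ENSRNOG00000046848, -1.29 to -0.18 for ENSRNOG00000010800, 0.48 to 1.14 for ENSRNOG00000001277, and for ENSRNOG00000022337 -1.55 to -0.54 against 1 d ON and -1.92 to -0.54 against unstimulated 3 d. ENSRNOG00000057078 ran from -0.92 to -0.26 (1 d OFF against 1 d ON), ENSRNOG00000046109 from -1.41 to -0.62 and ENSRNOG00000050834 from -1.56 to -0.71 (CHIR99021 against light). Median positions moved beyond the spread of their schedule in 3 of 28 cases, to 0.56 for Wnt3a and for light at 1 d ON with TMM-scaled totals and to 0.89 for Wnt3a 2 d OFF with optoWnt anchors alone, a setting chosen after seeing the data. No paired analysis was possible because the labels carry no replicate numbers; inducer is a term of the model instead. Leaving that term out gives no value for the comparisons between inducers. The cause of these shifts was not tested.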
